A study of Mus musculus with 2 samples.

Results

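Fibronectin, its crosslinking enzyme Tgm2, 5 integrin subunits that bind fibronectin, the coreceptor syndecan 4 and the protease inhibitor Serpine2 were followed through the cell classes of whole mouse uterus. These 9 genes (Fn1, Tgm2, Itga5, Itgb1, Itgav, Itga8, Itgb3, Sdc4 and Serpine2) were taken by symbol from the 32285 genes of the count matrices. They were chosen from earlier results of these same data, so the differences that put them forward are described here and nothing is tested with them. The data are single-cell RNA sequencing of 2 libraries, 1 per group, from female C57BL/6J mice aged 6 months, each library a pool of 3 animals whose uteri were digested with collagenase for 5 hours. One library is titled Prickle1 f/f (control) and the other Prickle1 f/f MiC (cKO). The f/f allele is thus shared by both groups, the labels do not spell out MiC or say which cells it acts in, and the genotype entry reads wild-type for both. With 1 pooled library per group there was no replicate, so no difference below has a test or a p-value.

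Fibronectin is a secreted glycoprotein that cells assemble into fibrils of the extracellular matrix. Assembly starts when a dimer of integrin alpha 5 and beta 1 binds the protein and pulls on it; dimers of alpha v with beta 3 or beta 1, and of alpha 8 with beta 1, bind the same short motif, while syndecan 4 binds its heparin-binding domain. Tgm2, transglutaminase 2, crosslinks matrix proteins and can hold fibronectin and integrins together at the cell surface, and Serpine2 (protease nexin 1) inhibits thrombin and plasminogen activators, proteases that can degrade or modify this matrix. In the uterus, stromal fibroblasts and muscle are known sources of fibronectin, and integrins are known markers of the epithelium around implantation.

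The genes lie apart in the genome. On the GRCm38 (mm10) build with GENCODE vM21 annotation, the protein-coding gene Fn1 spans chr1:71585520-71653200 and Serpine2 chr1:79794197-79861180. Tgm2 spans chr2:158116402-158146436 and Itga5 chr15:103344286-103366763, all 4 on the minus strand. Promoter sequence from RefSeq (GRCm38.p6) was found for 6 of the 9 genes, Itga5, Itgb1, Itgav, Itga8, Sdc4 and Serpine2. The 250 bases before the annotated start are printed for Itga5, which differed in smooth muscle-like cells, and Serpine2, which differed in fibroblast-like cells. Each runs 5′ to 3′ on the gene's strand. Capitals mark GC boxes, GGGCGG or its complement CCGCCC, of which neighbouring ones in the Serpine2 sequence overlap or abut. The RefSeq start of Serpine2 lies inside the span that GENCODE gives the gene.
Itga5, chr15:103366792-103367041, minus strand: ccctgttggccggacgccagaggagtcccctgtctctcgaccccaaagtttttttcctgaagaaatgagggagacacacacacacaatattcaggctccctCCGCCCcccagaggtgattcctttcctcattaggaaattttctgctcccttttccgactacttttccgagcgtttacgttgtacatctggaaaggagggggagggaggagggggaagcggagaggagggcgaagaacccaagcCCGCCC
Serpine2, chr1:79858666-79858915, minus strand: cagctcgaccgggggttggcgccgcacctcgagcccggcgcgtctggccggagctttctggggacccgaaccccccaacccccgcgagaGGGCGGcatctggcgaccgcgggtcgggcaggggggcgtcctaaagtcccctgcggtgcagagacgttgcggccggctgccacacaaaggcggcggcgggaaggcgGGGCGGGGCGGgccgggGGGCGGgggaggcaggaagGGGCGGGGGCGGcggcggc
The Itga5 stretch held 2 GC boxes and the Serpine2 stretch held 6, against 4 in Sdc4, 1 in Itgb1 and 0 in Itgav and Itga8. Of all 32851 RefSeq promoter stretches of this length, 32.7% held at least 1. Serpine2 was also richer in G and C (78.8%) than Itga5 (55.6%) or the median stretch (52.4%). The AP-1 motif TGANTCA, held by 6.75% of all stretches, and the CArG box, held by 1.47%, matched none of the 6. The TEAD motif GGAATG, held by 12.6%, matched once, in Itgb1. All motifs were searched on both strands, and none of these matches overlapped one of another motif.

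The 2 libraries held 45035801 and 34261441 unique molecular identifiers (UMIs), and 3490 and 3586 cells once barcodes under 1000 UMIs, under 500 genes or over 20% mitochondrial UMIs were dropped. Median depth was 4953 UMIs per cell in the control-labelled library and 4903 in the cKO-labelled library, and 6 cell barcodes occurred in both. The cells formed 24 clusters, and marker genes put 23 of them in 11 classes, called fibroblast-like and so on. Classes with at least 100 cells in each library were compared, which left 6. Fibroblast-like cells numbered 867 and 1362, and smooth muscle-like cells 313 and 682 (control, then cKO). Epithelium-like cells numbered 1311 and 109. All UMIs of a class were summed per library and scaled to counts per 1000000 UMIs of the class (CPM), so cells of 1 library are never treated as replicates. The 95% intervals are exact and cover counting error only, and they are too narrow where a single cell holds many UMIs. Prickle1 itself went against its label. It stood at 2.56 CPM over all cells in the control-labelled library (96 UMIs) and at 9.03 CPM in the cKO-labelled library (265 UMIs). These levels pool all classes, and the mix of classes differed. Epithelium-like cells were 37.6% of the cells in the control-labelled library and 3.04% in the cKO-labelled library. The labels do not give the deleted part of the gene, and a 3-prime count need not cover it, so the groups are named by their labels only, as the control-labelled and the cKO-labelled library.

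**Figure D1:**
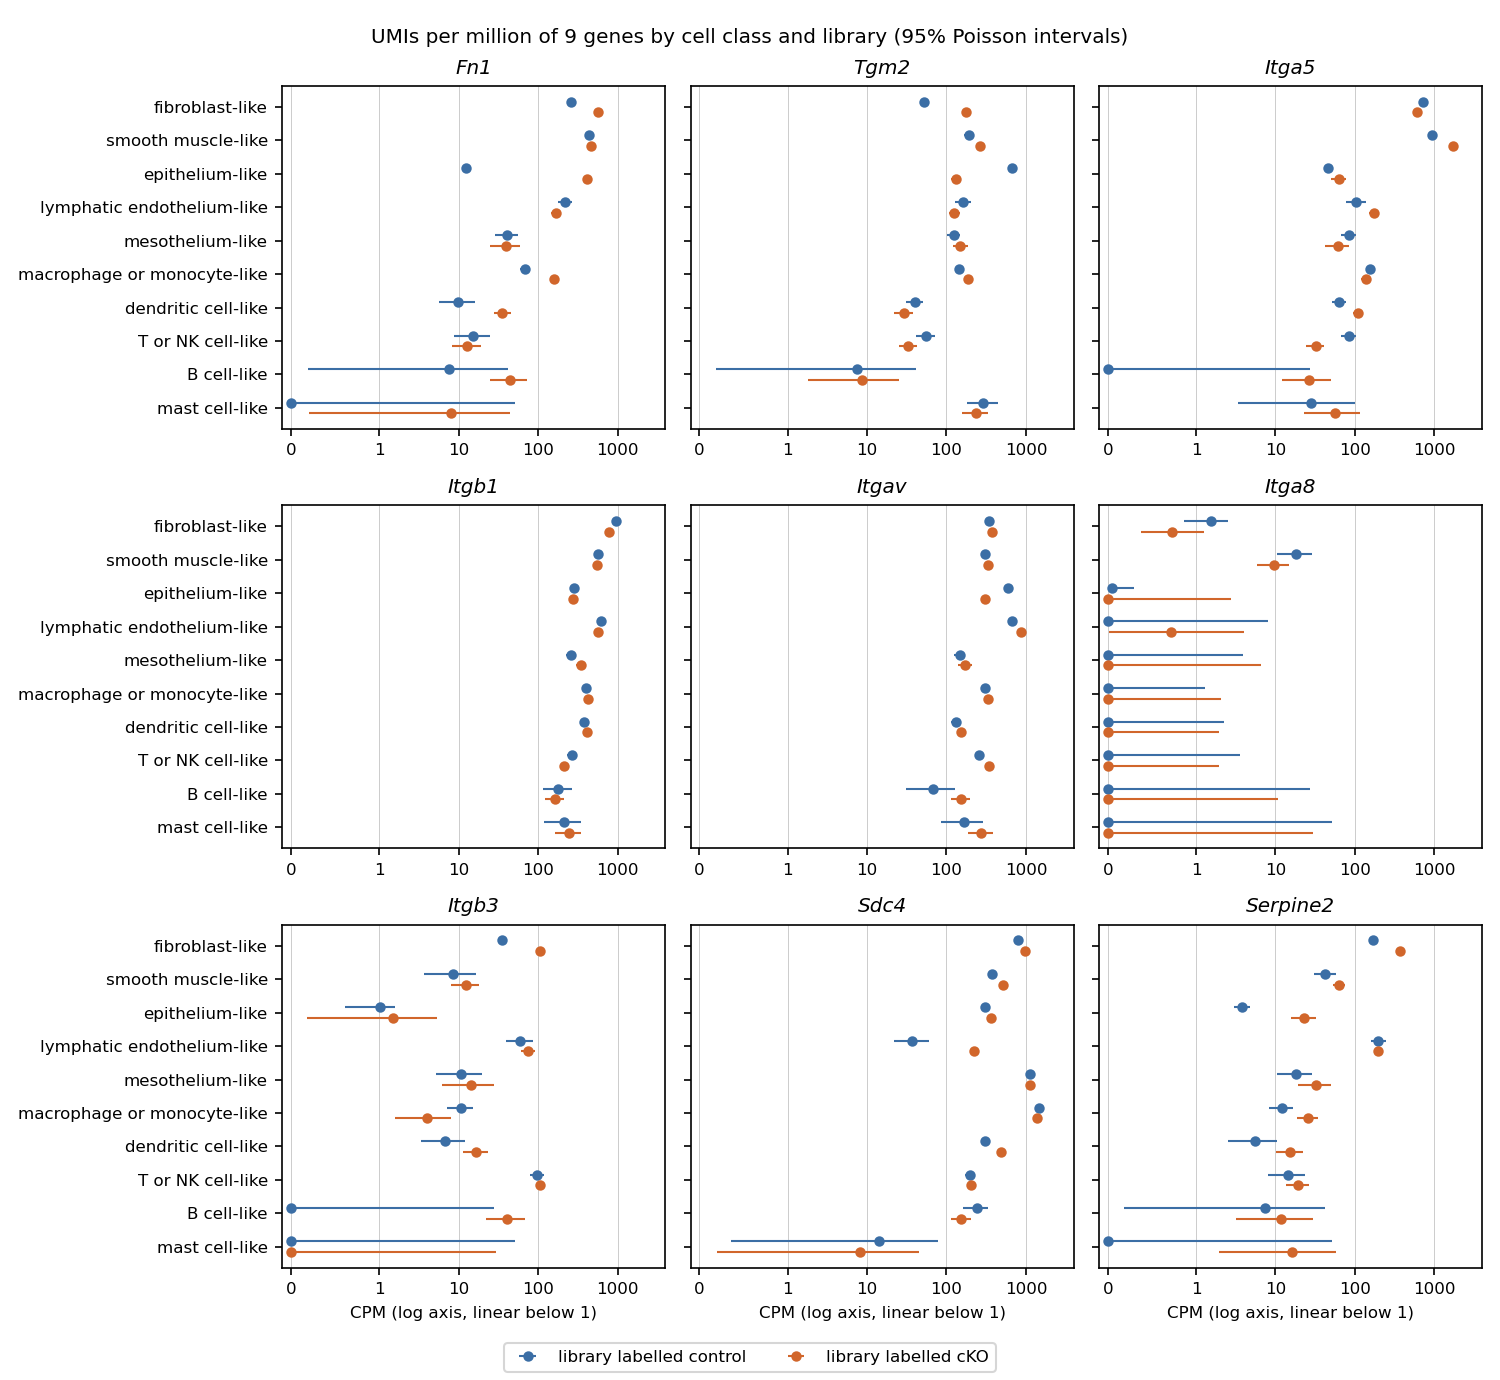
Level of each of the 9 genes in CPM (horizontal axis, logarithmic, linear below 1) in 10 cell classes with at least 20 cells in each library (vertical axis), with levels from summed UMIs as points and exact 95% Poisson intervals as bars, blue for the control-labelled library and orange for the cKO-labelled library. Fn1 and Tgm2 differ most between the libraries in the epithelium-like row, in opposite directions, and Itga8 is at most 1.53 CPM outside smooth muscle-like cells.

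Fn1, the ligand, came mostly from fibroblast-like cells: 71.1% of all its UMIs in cells of the control-labelled library and 81.0% in the cKO-labelled library. Its level in these cells was 257 CPM in the control-labelled library (2508 UMIs) and 568 CPM in the cKO-labelled library (9360 UMIs), a ratio of 2.21 (95% interval 2.12 to 2.31). With each cell thinned to 1000 UMIs, 15.5% and 29.4% of fibroblast-like cells held a Fn1 UMI, against 49.1% and 67.8% at full depth. For comparison, the T or NK cell-like class, which should lack the gene, held it in 0% and 0.443% of thinned cells. Fn1 was therefore seen in more fibroblast-like cells of the cKO-labelled library as well as at a higher summed level.

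The order of classes by Fn1 level was not the same in both libraries. In the control-labelled library, smooth muscle-like cells were highest (441 CPM), then fibroblast-like (257 CPM) and lymphatic endothelium-like cells (216 CPM), and the intervals of the last pair overlapped. In the cKO-labelled library, fibroblast-like cells were highest (568 CPM). Smooth muscle-like cells (460 CPM) and epithelium-like cells (416 CPM) followed with overlapping intervals. Lymphatic endothelium-like (166 CPM) and macrophage or monocyte-like cells (159 CPM) came next and overlapped as well. Smooth muscle-like cells barely differed between the libraries in Fn1 (ratio 1.04, 95% interval 0.929 to 1.17). In the control-labelled library, 1 of these cells held 73 of the 416 Fn1 UMIs. Without the top cell of each library the levels were 373 and 441 CPM, a ratio of 1.18. Cells with at least 5 UMIs of the fibroblast marker Dcn held 25.7% and 14.4% of the Fn1 UMIs of this class.

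Tgm2, the crosslinking enzyme, had opposite differences in epithelium and stroma. In epithelium-like cells it stood at 673 CPM in the control-labelled library (12721 UMIs) and 132 CPM in the cKO-labelled library (178 UMIs), a ratio of 0.196 (95% interval 0.168 to 0.228). In fibroblast-like cells it stood at 51.7 CPM (505 UMIs) and 174 CPM (2876 UMIs), a ratio of 3.38 (95% interval 3.07 to 3.72). Epithelium-like cells held 89.7% of all Tgm2 UMIs in the control-labelled library and 4.01% in the cKO-labelled library. Over all cells pooled the gene was lower in the cKO-labelled library, at 151 CPM against 378 CPM, although 3 of the 6 compared classes, fibroblast-like, smooth muscle-like and macrophage or monocyte-like cells, had it higher. T or NK cell-like cells had it lower (ratio 0.608, 95% interval 0.417 to 0.887), and in dendritic cell-like cells the interval included 1 (0.495 to 1.05). In the T or NK cell-like class, 1 cell held 22 of the 57 Tgm2 UMIs of the control-labelled library. In the cKO-labelled library, 1 cell held 15 of the 62. Without these cells the ratio was 0.744. The log2 ratio of Tgm2 in this class stayed negative under 13 of 14 alternatives, but was 0.68 with cells thinned to 1000 UMIs. Smooth muscle-like cells held 193 and 268 CPM, a ratio of 1.39 (95% interval 1.17 to 1.65).

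Tgm2 also changed its order over classes. In the control-labelled library, epithelium-like cells led, followed by mast cell-like (292 CPM) and smooth muscle-like cells, whose intervals overlapped. In the cKO-labelled library, smooth muscle-like cells led, overlapping with mast cell-like cells (233 CPM), then macrophage or monocyte-like (184 CPM) and fibroblast-like cells, which overlapped with each other. Cells with both a Fn1 and a Tgm2 UMI made up 12.8% of fibroblast-like cells in the control-labelled library (95% Clopper-Pearson interval 10.7 to 15.2) and 32.7% in the cKO-labelled library (30.3 to 35.3), at full depth. Median depths of the class were 9522 and 10160 UMIs per cell. Depth was not matched beyond the median, since the shallow cluster 13 gave 241 of 867 cells in one library and 130 of 1362 in the other.

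**Figure D2:**
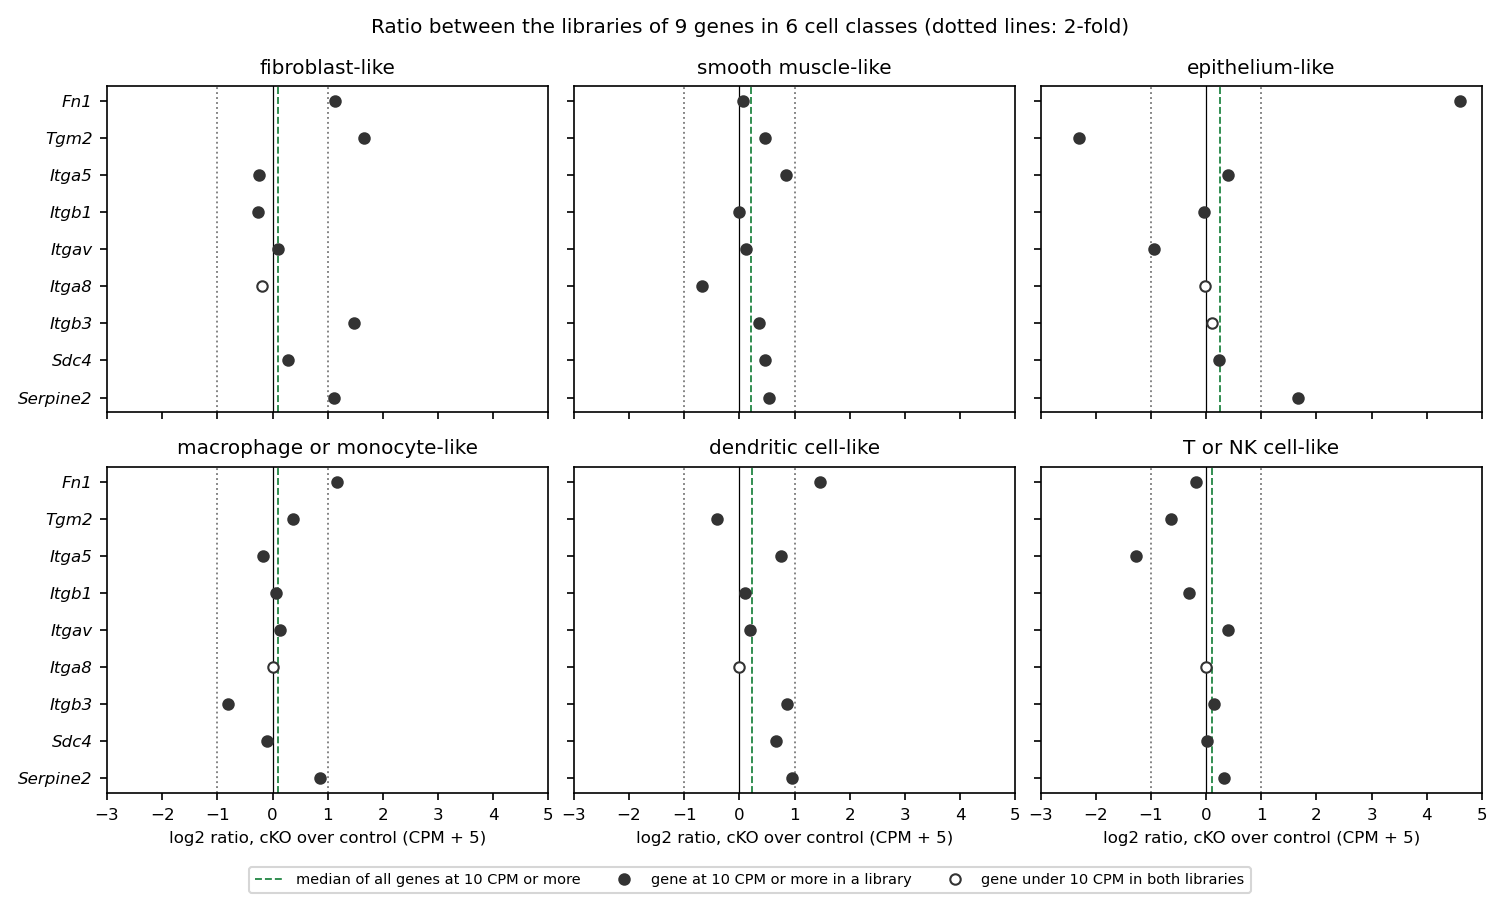
Log2 ratio of each gene, library labelled cKO over library labelled control, on the log2(CPM + 5) scale (horizontal axis) in the 6 compared classes. Filled points are genes with at least 10 CPM in a library, open points are genes under it in both, dotted lines mark 2-fold, and the green dashed line is the median of all genes tested in the class; Tgm2 lies at 1.66 in fibroblast-like cells and at -2.31 in epithelium-like cells.

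On the log2(CPM + 5) scale, which understates changes of low genes, 8 of the 9 genes had at least 10 CPM in fibroblast-like cells and 4 were past 2-fold higher in the cKO-labelled library: Tgm2 (1.66), Itgb3 (1.48), Fn1 (1.13) and Serpine2 (1.12). None was past 2-fold lower. Of all 8157 genes tested in this class, 1.59% were past 2-fold higher and 0.919% lower, but the genes were chosen for such differences, so nothing is read from that gap. The median ratio of the 8 was 0.70, beside a median of 0.10 for all genes tested. Just inside the 2-fold limit were Serpine2 and Fn1, and the nearest gene outside it was Sdc4 (0.29).

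The fibroblast-like differences were not spread evenly over the 6 clusters of the class. Cluster 21, led by Dio2, Aldh1a2 and Col6a4, held 16 cells of the control-labelled library and 222 of the cKO-labelled library, and cluster 23, led by Hsd11b2 and Col6a4, held 6 and 70. In cells of the cKO-labelled library, cluster 21 had 844 CPM of Fn1, 830 CPM of Serpine2, 371 CPM of Tgm2 and 281 CPM of Itgb3. These were the highest values of Tgm2, Serpine2 and Itgb3 in any fibroblast-like cluster, and cluster 23 alone was higher in Fn1 (955 CPM).

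Without clusters 21 and 23, which come over 90% from 1 library, the 4 genes parted. Tgm2 was still past 2-fold higher in the cKO-labelled library, with 44.0 and 98.2 CPM and a log2 ratio of 1.07. Fn1 kept a log2 ratio of 0.79, with 253 and 442 CPM. Itgb3 and Serpine2 had log2 ratios of 0.34 and 0.25. Most of the Itgb3 and Serpine2 difference of the class thus lay in those 2 clusters, which are nearly confined to 1 library and so cannot be told apart from that library.

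Within the 4 clusters that both libraries filled (2, 7, 11 and 13), Tgm2 was higher in the cKO-labelled library in each. It stood at 65.7 and 120 CPM in cluster 2, at 20.5 and 29.9 in cluster 7, at 31.3 and 62.4 in cluster 11 and at 40.5 and 176 in cluster 13; in cluster 7 the interval of the ratio included 1 (0.957 to 2.22). Fn1 differed most in cluster 2, with 316 and 581 CPM, a ratio of 1.84 (95% interval 1.73 to 1.96). In cluster 13 Fn1 was also higher in the cKO-labelled library, at 101 and 160 CPM. Fn1 was closer to level in cluster 7, at 274 and 276 CPM, and in cluster 11, at 156 and 173. Cluster 2 was led by Ptx3, Dpt and Mmp3 and had the chemokine gene Ccl7 among its leading genes, so it carried inflammatory genes beside its fibroblast markers. Serpine2 differed in cluster 2 (85.2 and 147 CPM) and little in cluster 11 (361 and 371 CPM), where its level was highest of these 4 clusters.

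**Figure D3:**
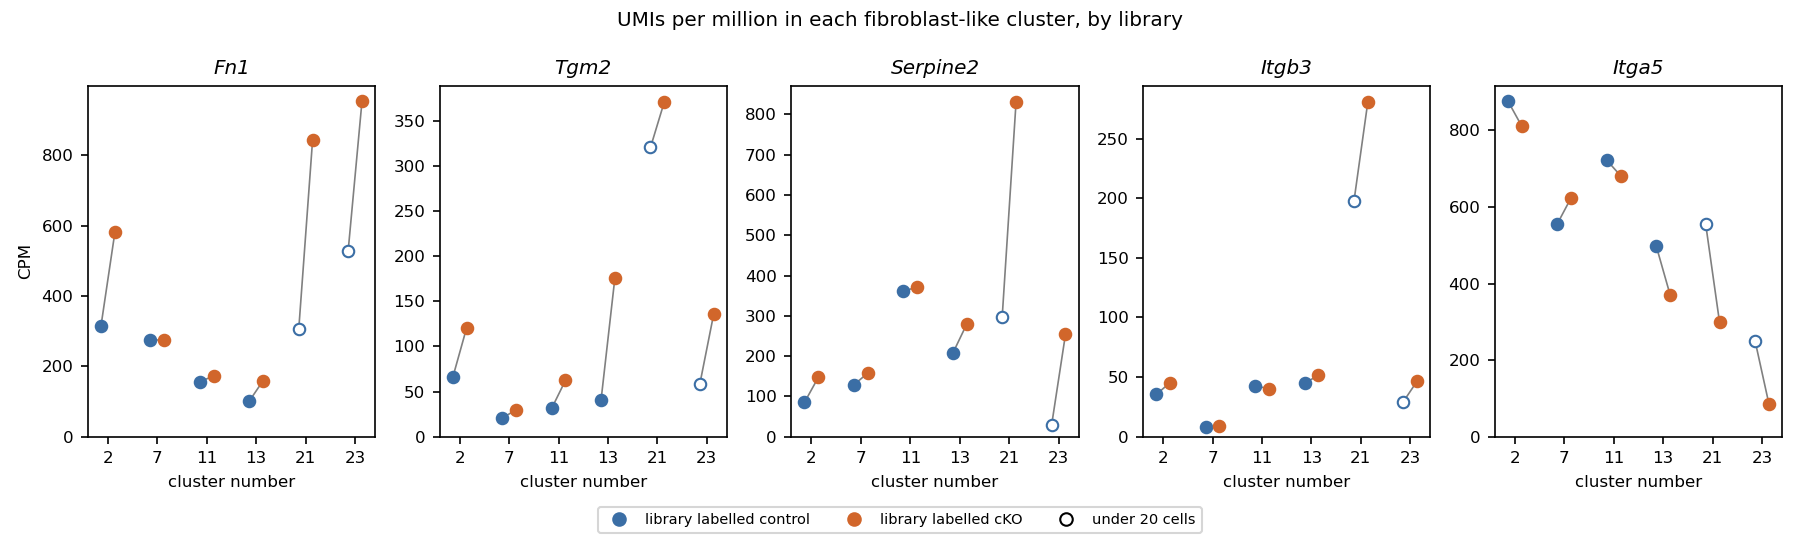
CPM (vertical axes, each from 0) of Fn1, Tgm2, Serpine2, Itgb3 and Itga5 in the 6 fibroblast-like clusters (horizontal axis), blue for the control-labelled library and orange for the cKO-labelled library, with open points for fewer than 20 cells. Serpine2 and Itgb3 reach 830 and 281 CPM in cluster 21, while Tgm2 is higher in the cKO-labelled library in all 6 clusters.

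Epithelium-like cells showed the widest Fn1 difference, but in few cells. They held 12.4 CPM in the control-labelled library (235 UMIs) and 416 CPM in the cKO-labelled library (561 UMIs), a log2 ratio of 4.60. In the cKO-labelled library, 1 cell held 208 of the 561 UMIs and the top 10% of cells held 90.6%. Without the top cell of each library the ratio was 23.4. At least 10 Fn1 UMIs were found in 10 of 109 cells of the cKO-labelled library, and these held 500 UMIs. In the control-labelled library, 5 of 1311 cells reached 10, and they held 74 UMIs.

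The 10 cells of the cKO-labelled library carried epithelial markers. Their Krt8 counts, a keratin of simple epithelia, ran from 52 to 1342 and their Epcam counts from 2 to 248, and none held more than 1 UMI of Dcn, a fibroblast marker. Of the 5 cells of the control-labelled library, 2 held at least 2 Dcn UMIs, up to 81. Smooth muscle markers were not counted in these cells. Over all epithelium-like cells, 8 such markers summed to 70.4 and 264 CPM, and the part of smooth muscle RNA in Fn1 was not tested. Most Fn1 of the cKO-labelled library lay in cluster 9, led by Sprr2f and Lcn2, with 506 UMIs in 43 cells. There Fn1 stood at 16.3 and 483 CPM, and in cluster 0 at 15.5 and 184 CPM. Fn1 was thus higher in the cKO-labelled library in both epithelial clusters that the libraries shared.

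**Figure D4:**
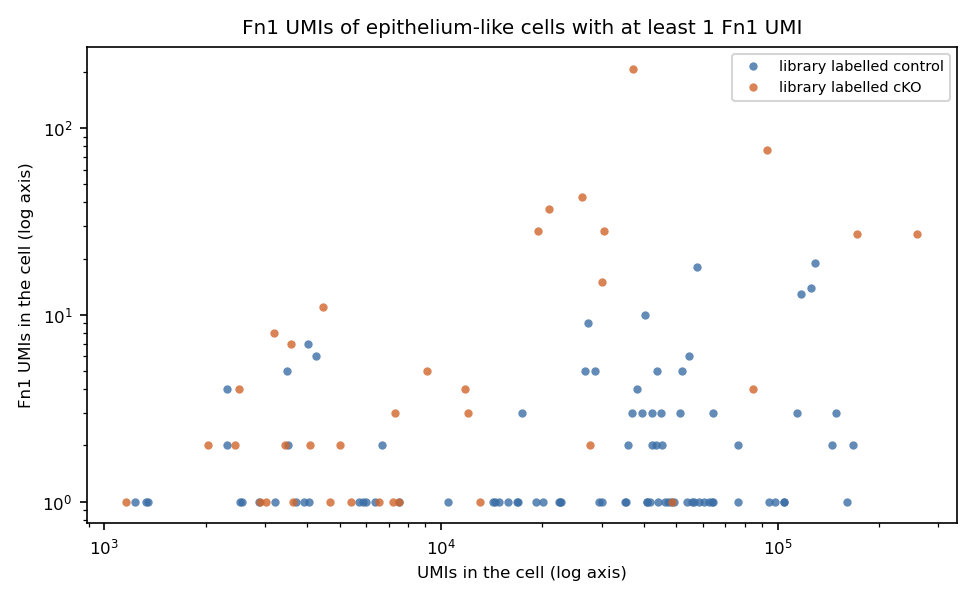
Fn1 UMIs per cell (vertical axis, logarithmic) against all UMIs of the cell (horizontal axis, logarithmic) for the 88 epithelium-like cells of the control-labelled library (blue) and the 35 of the cKO-labelled library (orange) with at least 1 Fn1 UMI. A single orange cell reaches 208 Fn1 UMIs, and no blue cell exceeds 19.

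Of 7 genes with at least 10 CPM in epithelium-like cells, 2 were past 2-fold higher in the cKO-labelled library, Fn1 and Serpine2 (3.81 and 23 CPM, log2 ratio 1.67), and 1 was lower, Tgm2 (-2.31). Of all 8678 genes tested, 13.6% were past 2-fold higher and 7.24% lower. Serpine2 rested on 72 and 31 UMIs. In the cKO-labelled library 1 cell held 10 of its UMIs, and the top 10% of cells held 96.8%. Without the top cell of each library its log2 ratio was 1.34. Clusters 5 and 8, with 367 and 220 cells, came from the control-labelled library only, and clusters 0 and 9 held all epithelium-like cells of the cKO-labelled library. Without clusters 5 and 8 the 3 genes stayed past 2-fold, with log2 ratios of 4.32, 1.46 and -1.52. In cluster 0, Tgm2 stood at 415 and 204 CPM, and in cluster 9 at 377 and 112 CPM. Cluster 8 had the highest Tgm2 level of the class, 889 CPM.

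Itgav, the alpha v integrin subunit, was the other gene with a lower epithelial level, at 591 CPM in the control-labelled library and 306 CPM in the cKO-labelled library (ratio 0.518, 95% interval 0.468 to 0.571). In cluster 0 it stood at 596 and 291 CPM, but in cluster 9 at 350 and 310 CPM. The Itgav difference was therefore carried by cluster 0 and by clusters 5 and 8, at 755 and 674 CPM. Itgb1 in the same cells was 280 and 272 CPM, and the interval of its ratio included 1 (0.874 to 1.08). Itgb3, the beta 3 partner of alpha v, was close to absent from epithelium-like cells, with 19 and 2 UMIs.

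Itga5, the alpha 5 subunit of the main fibronectin receptor, was highest in smooth muscle-like cells of both libraries and differed most there among the integrins. It stood at 942 CPM in the control-labelled library (889 UMIs) and 1705 CPM in the cKO-labelled library (3592 UMIs), a ratio of 1.81 (95% interval 1.68 to 1.95). Its partner Itgb1 stood at 560 and 555 CPM, a ratio of 0.991 (95% interval 0.894 to 1.10). With cells thinned to 1000 UMIs, 23.6% and 40.3% held an Itga5 UMI and 33.2% and 32.4% an Itgb1 UMI. Alpha 5 thus differed between the libraries while beta 1 was nearly level. At full depth 26.8% and 39.9% of smooth muscle-like cells held UMIs of both genes.

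The Itga5 difference was present in each of the 3 smooth muscle-like clusters. In cluster 17, which held most of the gene and was led by Flrt1, Tmem200a and Gata6, Itga5 stood at 1657 and 2608 CPM, a ratio of 1.57 (95% interval 1.45 to 1.71). In cluster 12, led by the contractile genes Actg2, Tagln and Pcp4, it stood at 145 and 265 CPM (ratio 1.83, 95% interval 1.33 to 2.55). Cluster 22 had 617 and 882 CPM, with only 12 cells in the control-labelled library. Itga5 therefore varied over 10-fold between cluster 12 and cluster 17 of the control-labelled library, more than it did between libraries. Of 7 pericyte markers, 5 were detected in smooth muscle-like cells, with a summed 51.9 and 51.7 CPM, and Higd1b and Vtn were at 0 in both libraries. The summed level of 8 fibroblast markers in these cells was 1194 and 833 CPM, lower in the cKO-labelled library, and without the cells holding at least 5 Dcn UMIs the Itga5 log2 ratio was 0.81 against 0.85 with them. Other marker sums differed as well: the 8 smooth muscle markers summed to 11259 and 7025 CPM, 5 erythroid genes to 37.1 and 688 CPM, and 8 epithelial markers to 124 and 29.4 CPM. Their part in the Itga5 difference was not tested.

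**Figure D5:**
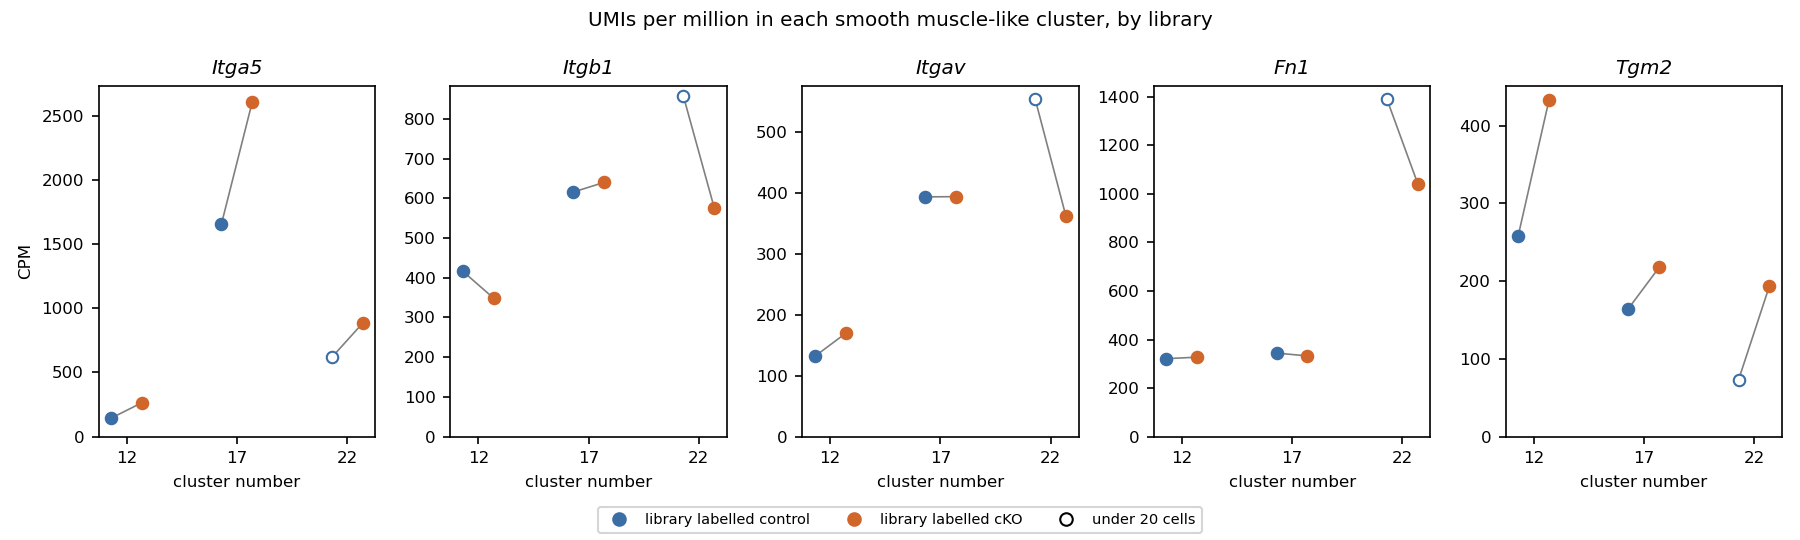
CPM (vertical axes, each from 0) of Itga5, Itgb1, Itgav, Fn1 and Tgm2 in the 3 smooth muscle-like clusters (horizontal axis), blue for the control-labelled library and orange for the cKO-labelled library, with open points for fewer than 20 cells. Itga5 is higher in orange than in blue in all 3 clusters, up to 2608 CPM in cluster 17, while Fn1 in clusters 12 and 17 stays between 321 and 344 CPM.

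Smooth muscle-like cells had all 9 genes at 10 CPM or more in a library, and 0 were past 2-fold in either direction, where 3.77% of the 8671 genes tested were past 2-fold higher and 2.01% lower. The median log2 ratio of the 9 was 0.36, beside 0.21 for all genes tested. Itga8, the alpha 8 subunit, was found almost only in this class and in fibroblast-like cells, but it was rare: 17 and 20 UMIs in smooth muscle-like cells, or 18.0 and 9.49 CPM, with an interval of the ratio that included 1 (0.262 to 1.07). Cluster 17 held 16 and 12 of these UMIs. In the control-labelled library 1 cell held 10 of the 17 UMIs, and without the top cell of each library the levels were 7.50 and 8.55 CPM. A difference in Itga8 was not detectable at this depth. Under a scaling by the median of ratios, the small positive values of Fn1 (0.06) and Itgav (0.12) in this class turned to -0.16 and -0.10, so their direction is not given.

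In fibroblast-like cells the alpha 5 and beta 1 subunits did not follow Fn1. Itga5 stood at 720 CPM in the control-labelled library and 603 CPM in the cKO-labelled library (ratio 0.837, 95% interval 0.812 to 0.863), and Itgb1 at 950 and 787 CPM (0.828, 0.806 to 0.851). Both low values came with cluster 21, at 299 CPM of Itga5 and 429 CPM of Itgb1 in the cKO-labelled library. Without clusters 21 and 23, Itga5 stood at 728 and 745 CPM and its log2 ratio turned from -0.25 to 0.03. Itgb1 then stood at 959 and 948 CPM. Cells of cluster 21 thus had high Fn1 beside comparatively low levels of the alpha 5 and beta 1 subunits.

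Itgb3, the beta 3 subunit, was low in most classes. In fibroblast-like cells it stood at 34.9 and 106 CPM, with 341 and 1751 UMIs, of which cluster 21 gave 1274 in the cKO-labelled library. Cluster 21, the deepest fibroblast-like cluster, held 16 of 867 cells in the control-labelled library and 222 of 1362 in the cKO-labelled library. At full depth, not matched between the libraries, cells holding both Itgav and Itgb3 UMIs were 14.5% and 25.1% of the class. T or NK cell-like cells had 96.7 and 107 CPM, the highest of any named class in both, overlapping with fibroblast-like cells in the cKO-labelled library. Their cluster 10, led by Trdc, Cxcr6 and Ccr2, had 140 and 123 CPM of Itgb3 and 379 and 393 CPM of Itgav. In cluster 19, led by Il5 and Gata3, Itgb3 stood at 67.5 and 80.4 CPM. Both subunits of the alpha v beta 3 integrin were therefore present in lymphocyte-like cells of both libraries.

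T or NK cell-like cells had 8 genes at 10 CPM or more, of which 0 were past 2-fold higher and 1 lower, Itga5, where 2.04% of the 8934 genes tested were past 2-fold higher and 3.48% lower. Itga5 stood at 84.2 CPM in the control-labelled library (88 UMIs) and 32.1 CPM in the cKO-labelled library (60 UMIs), a log2 ratio of -1.27. In the control-labelled library, 4 of 205 cells held at least 5 UMIs of the fibroblast marker Dcn, and these 4 cells carried 83.0% of the Itga5 UMIs. In the cKO-labelled library, 8 of 451 cells held that much Dcn and carried 48.3%. Without these cells the log2 ratio was 0.14, so the lower value rests on them. All 8 fibroblast markers were detected in this class, with a summed level of 552 and 555 CPM.

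Sdc4, the heparan sulfate coreceptor, was highest in macrophage or monocyte-like cells. Macrophage or monocyte-like cells held 1470 and 1376 CPM, mesothelium-like cells 1134 and 1136 CPM, and fibroblast-like cells 797 and 974 CPM. This order was the same in both libraries, with intervals that did not overlap. Of the mesothelium-like cells, 92.5% and 90.3% held at least 5 Dcn UMIs, and fibroblast markers summed to 9859 and 12748 CPM there against 1290 and 1638 CPM for the 6 mesothelial markers. The part of fibroblast RNA in their Sdc4 level was not tested. The widest Sdc4 difference was in lymphatic endothelium-like cells, at 37.1 CPM (17 UMIs in 31 cells) and 224 CPM (314 UMIs in 103 cells). In the cKO-labelled library, 7 of these cells held at least 5 Dcn UMIs and carried 36.3% of the Sdc4 UMIs, and the summed level of the 8 fibroblast markers was 179 and 852 CPM. The part of these cells in the rest of the difference was not tested. The same class had the highest Itgav level in both libraries (668 and 863 CPM); in the control-labelled library its interval overlapped that of epithelium-like cells (591 CPM), and 1 cell held 111 of its 306 UMIs. It also had, in the control-labelled library, a Serpine2 level (199 CPM) whose interval overlapped that of fibroblast-like cells. There 1 of the 31 cells held 33 of the 91 Serpine2 UMIs.

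Serpine2, the protease inhibitor, was a fibroblast-like gene in these data, with 83.7% and 90.5% of its UMIs in that class. Its level there was 170 CPM in the control-labelled library (1664 UMIs) and 375 CPM in the cKO-labelled library (6186 UMIs), a ratio of 2.20 (95% interval 2.09 to 2.33). Lymphatic endothelium-like cells held 199 and 195 CPM, without a difference beyond counting error, but 1 cell of the control-labelled library held 33 of its 91 UMIs. In the other compared classes its level was at most 64.1 CPM.

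Among myeloid cells, 8 genes passed 10 CPM in the macrophage or monocyte-like class and 1, Fn1, was past 2-fold higher in the cKO-labelled library, with 0 lower; 1.32% of the 7576 genes tested were higher and 2.46% lower. Fn1 stood at 68.2 CPM (194 UMIs) and 159 CPM (284 UMIs), a log2 ratio of 1.17, but 1 cell of the cKO-labelled library held 113 of its UMIs. Without the top cell of each library the log2 ratio was 0.90, no longer past 2-fold. Cells with at least 5 Dcn UMIs carried 62.4% of Fn1 in the control-labelled library and 24.3% in the cKO-labelled library, and with those cells left out instead, the ratio was 2.06 on the log2 scale. The summed level of the fibroblast markers in this class was 1442 and 1140 CPM. Itgb3 in this class came to 30 and 7 UMIs, with 16 of the 30 in 1 cell. Cells with at least 5 Dcn UMIs held 26 of the 30 and 5 of the 7. Dendritic cell-like cells had 8 genes at 10 CPM or more, with 1 past 2-fold higher (Fn1, 9.78 and 35.5 CPM, 16 and 67 UMIs) and 0 lower, where 4.13% of the 7619 genes tested were higher and 4.04% lower. The Fn1 log2 ratio there, 1.45, was 0.51 at Leiden resolution 2.0 and near 0 when classes were taken from each cell's own markers. Of these Fn1 UMIs, 68.8% and 41.8% lay in cells with at least 5 Dcn UMIs. Under the other 12 of 14 alternatives, removal of those cells among them, the ratio stayed past 2-fold higher. Without the top cell of each library the log2 ratio was 1.58.

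The other genes of the pathway were read from lists of known receptors, adaptors and proteases. Of 11 other fibronectin receptors, 6 passed 10 CPM in fibroblast-like cells and all 6 had positive ratios, with a median of 0.46, but only Sdc1, syndecan 1, was past 2-fold higher (45.3 and 119 CPM, log2 ratio 1.30). Itgb8 (0.93) and Itgb5 (0.62), beta subunits that pair with alpha v, followed, and Sdc2 (0.29), Sdc3 (0.28) and Itga9 (0.26) were lowest. Over all genes tested in this class, 1.59% were past 2-fold higher. In smooth muscle-like cells 8 passed and 1, Itgb8, was past 2-fold higher (14.8 and 46.5 CPM, 1.38), where 3.77% of all genes tested were. Sdc1 (0.75) and Itga3 (0.60) came next. The lowest were Itga2b (-0.81), Itgb5 (-0.30) and Itga9 (-0.16), none past 2-fold. The laminin-binding subunit Itga6 was past 2-fold higher in fibroblast-like cells (5.22 and 33.6 CPM, 1.92), and the collagen-binding Itga2 was nearly level (0.08). In smooth muscle-like cells 3 of 7 such subunits passed 10 CPM, Itga1 (0.48), Itga2 (0.25) and Itga7 (-0.37). In fibroblast-like cells, the part of clusters 21 and 23 in the ratios of these and the later lists was not tested.

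Focal adhesion adaptors, which link integrins to actin, had no gene past 2-fold in fibroblast-like or smooth muscle-like cells. In fibroblast-like cells 16 of 22 passed 10 CPM, with a median of 0.20. Their highest ratios were Flna (0.47), Vcl (0.46) and Tns1 (0.33) and their lowest Actn4 (-0.19), Tln1 (-0.04) and Fermt2 (0.04). In smooth muscle-like cells 20 passed, with a median of 0.15. The highest were Fermt3 (0.68), the actin crosslinker Actn1 (0.67) and vinculin, Vcl (0.66), at 268 and 428 CPM, and the lowest Tln2 (-0.86), Ilk (-0.24) and Lims2 (-0.24). These values stand beside medians over all genes tested of 0.10 in fibroblast-like and 0.21 in smooth muscle-like cells. Of all genes tested, 1.59% were past 2-fold higher and 0.919% lower in fibroblast-like cells, and 3.77% and 2.01% in smooth muscle-like cells. In epithelium-like cells 4 of 18 were past 2-fold higher (Fermt2, Parva, Tns1 and Flna) and 2 lower (Bcar1 and Vasp), where 13.6% of all genes tested were higher and 7.24% lower. Tns1 was past 2-fold higher in dendritic cell-like cells as well, where 4.13% of all genes tested were. The genes given for these last classes were named after their values were seen.

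Of 13 genes of plasminogen activation and the thrombin system, the proteases and receptors around Serpine2, 8 passed in fibroblast-like cells and 0 were past 2-fold. Of all genes tested in this class, 1.59% were past 2-fold higher and 0.919% lower. The thrombin receptor F2r had the highest ratio (39.9 and 68.5 CPM, 0.71). The activator genes Plau (0.25) and Plat (0.04), thrombomodulin, Thbd (0.15), and F3 (0.02) were closer to level. Of 7 that passed in smooth muscle-like cells, tissue factor, F3, was past 2-fold higher (429 and 875 CPM, 1.02). Plau came next (0.58), and Thbd (-0.70), Lrp1 (-0.54) and Plat (-0.26) were lowest. Of all genes tested in smooth muscle-like cells, 3.77% were past 2-fold higher and 2.01% lower. Of 14 genes of fibronectin assembly and associated matrix, 12 passed in fibroblast-like cells and 0 were past 2-fold, with a median of 0.01. Highest were Tnc (186 and 343 CPM, 0.87), Fbn1 (0.73) and Fbln1 (0.67), matrix glycoproteins that bind or colocalize with fibronectin. Tnc was also a leading gene of cluster 21, which held 16 cells of the control-labelled library and 222 of the cKO-labelled library. Fndc1 (-0.21), Igfbp3 (-0.14) and Tnxb (-0.11) were lowest. In smooth muscle-like cells 10 passed and 0 were past 2-fold, with Fndc3b (0.63), Ltbp1 (0.36) and Thbs1 (0.30) highest and Fbn1 (-0.73), Fbln2 (-0.12) and Tnxb (0.02) lowest. None of the 8 other transglutaminase family genes reached 10 CPM in fibroblast-like or smooth muscle-like cells, so Tgm2 was the one member of the family found at that level there.

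Across the 24 clusters, both libraries pooled, the genes whose log2(CPM + 5) was most like Fn1 among 13597 genes were Prkar1b (Pearson r 0.89), Evi5 (0.87), Extl2 (0.87), Colgalt1 (0.87) and Pfn2 (0.86). For Tgm2 they were Ets2 (0.77), Ctnnd1 (0.76), Src (0.75), Sgms2 (0.75) and Prkci (0.75), and for Serpine2 Synpo (0.92), Cdr2l (0.89), Poglut2 (0.89), Fkbp10 (0.89) and the elastin gene Eln (0.89). Among the 9 genes themselves, Itga5 and Itgb1 had r 0.77, Fn1 and Itga5 0.74, and Fn1 and Tgm2 0.16. These are descriptions over clusters that share libraries and depth. Fn1 and Tgm2 were thus little alike over clusters, although both were higher in fibroblast-like cells of the cKO-labelled library.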

How the data were processed

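Whole uterus was measured by droplet single-cell RNA sequencing of transcript 3-prime ends. The deposited values are raw UMI counts per gene and barcode, unnormalized and unfiltered; the file headers name Cell Ranger 4, whereas the submitters' processing notes name Cell Ranger 6.1.1 and mm10. Libraries were grouped by their titles. Whether the 3 pooled animals of a library differed cannot be seen.

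Barcodes under 1000 UMIs, under 500 genes or over 20% mitochondrial UMIs were dropped. The remaining cells were clustered with scanpy 1.11.5 (2000 variable genes, without the 9 genes, the pathway lists and matrix genes; 30 components, 15 neighbours, Leiden resolution 1.0) and named from marker genes; a cluster led by Il2rb and Gzma stayed unnamed. Names were rebuilt here, so another naming could move values. Scrublet called 4 of 7076 cells (0.0565%), too few to have worked, so no doublet was removed. Free RNA, estimated from barcodes with at most 100 UMIs, was 2.48% and 1.89% of a cell's UMIs (control, cKO) from markers in the unnamed cluster. Pooled markers in T or NK cell-like cells, some of which carried Dcn, gave 9.76% and 16.6%. None was subtracted, and an alternative subtracted 10%.

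UMIs were summed per class and library. Genes with at least 10 CPM in either library were compared on the log2(CPM + 5) scale, and called means past 2-fold. Intervals are exact (Poisson, Clopper-Pearson, conditional binomial for ratios), at 95%. The method was tested on simulated counts. The 9 genes and all lists were chosen with earlier results of these data known. Named genes are the 9, Prickle1, the 3 highest and 3 lowest ratios of each list in fibroblast-like and smooth muscle-like cells, and the 5 genes most like Fn1, Tgm2 and Serpine2; cluster leaders and markers are named for description. One gene that this rule names is not reported here. Alternatives changed the pseudocount, scaling, depth, mitochondrial and resolution settings, naming, the mean within clusters, free RNA, thinning to 1000 UMIs and doublets; removal of cells with at least 5 Dcn UMIs and of the top cell was added after seeing the data.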

Additional observations from a re-analysis of the deposited data

Results flagged for a closer look

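Of the 9 genes, 3 had a ratio above 1 in one class and below 1 in another, with both intervals excluding 1 and at least 1 of the pair past 2-fold. The share of all genes that meet this rule was not computed, so nothing is read from the count. Other genes had both signs with smaller differences. None of these differences between classes was tested, since each group had 1 library. Tgm2 had a log2 ratio of 1.66 in fibroblast-like and -2.31 in epithelium-like cells, a gap of 3.97. Itga5 had 0.85 in smooth muscle-like and -1.27 in the T or NK cell-like class, so the values lay 2.12 apart, and the latter value rests on 4 control cells that also carried Dcn. Itgb3 had 1.48 in fibroblast-like and -0.80 in the macrophage or monocyte-like class, a gap of 2.28, the latter from 30 and 7 UMIs. Cells with at least 5 Dcn UMIs held 26 of those 30 and 5 of those 7. With classes from each cell's own markers the macrophage or monocyte-like value was 0.08.

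Barcodes with at most 100 UMIs also held different amounts of these transcripts. The main comparisons do not use these barcodes, which served only to estimate free RNA and to subtract it in an alternative. Fn1 was 3.83 times higher there in the cKO-labelled library (52.4 and 201 CPM), Serpine2 3.98 times (23.3 and 92.7 CPM) and Itga5 2.37 times (142 and 336 CPM), each with an interval that lay above 2-fold. Itgb3 was 3.01 times higher (95% interval 1.89 to 4.90), while Tgm2 and Itgav were lower there, with ratios of 0.481 and 0.653.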

How the results depend on the processing

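Of 672 log2 ratios recomputed under alternatives, 560 moved by no more than their counting interval, 109 moved further, and 3 that were past 2-fold changed sign. In all, 55 of the 672 changed sign, among 25 of the 48 gene and class pairs; Serpine2 in macrophage or monocyte-like cells went from 0.86 to -1.80 when thinned. The 3 were Itga5 in T or NK cell-like cells, whose log2 ratio of -1.27 became 1.43 with classes from each cell's own markers, 0.48 with the highest Scrublet scores removed and 0.14 without cells holding at least 5 Dcn UMIs. Fn1 and Serpine2 (higher) and Tgm2 (lower) in epithelium-like cells, and Tgm2 (higher) in fibroblast-like cells, stayed past 2-fold under all 14 alternatives of each. Itga5 in smooth muscle-like cells ranged from 0.63 to 1.23.

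Counts of the 9 genes past 2-fold moved as follows. In fibroblast-like cells, 4 higher became 1 without clusters from 1 library, 1 as a mean within clusters and 2 when thinned. In epithelium-like cells, 1 lower became 2 under median of ratios scaling and 2 when thinned. In smooth muscle-like cells, 0 higher became 1 when thinned. In macrophage or monocyte-like cells, 1 higher became 2 with a pseudocount of 1, and 0 at Leiden resolution 2.0, without high Scrublet scores and without the top cell of the gene; 0 lower became 1 with a pseudocount of 1, with free RNA subtracted, and when thinned. In dendritic cell-like cells, 1 higher became 3 with a pseudocount of 1, 3 without clusters from 1 library, 3 as a mean within clusters and 3 when thinned, and 2 without the top cell, with at most 10% mitochondrial UMIs, without high Scrublet scores, and without cells holding Dcn. In T or NK cell-like cells, 0 higher became 2 with own markers; 1 lower became 2 with at least 2000 UMIs and with free RNA subtracted, and 0 with own markers, as a mean within clusters, without the top cell, when thinned, without high Scrublet scores, and without cells holding Dcn. The cause was not tested. No paired analysis was possible because each group has 1 library. Depth limits Itga8, with 33 UMIs in each library.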
